A study of Arabidopsis thaliana with 44 samples.

Results

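These measurements concern Arabidopsis thaliana seedlings of the atm-1 genotype collected 6 h after gamma irradiation. The group holds 2 arrays, and it was set against 2 arrays of unirradiated atm-1 seedlings of the same day, with membership taken from the sample titles, so that 4 of the 44 arrays of the series enter the main contrast. The seedlings were 5 days old, grew vertically on plates at 21 °C in long days, and were used whole, with about 30 to 40 plants pooled for each RNA sample. The irradiated atm-1 seedlings had received 100 Gy of gamma rays over 15 min and were collected at 2:55 pm. The unirradiated atm-1 seedlings were collected at 10:45 am. WT seedlings of both kinds (2 arrays each, same dose, same clock times) served to compare the genotypes. A further atm-1 group had received 30 Gy of HZE radiation (accelerated iron nuclei) and was collected 1.5 h later, at 2:39 pm (2 arrays). Since irradiated and unirradiated seedlings were harvested at different times of day, radiation and time of day cannot be told apart in the main contrast. The comparison with WT is matched for clock time. Whether replicates were grown separately is not stated in the labels. The p-values then rest only on the spread between replicate arrays, which was estimated for each gene over all 22 groups of the series. They do not measure the spread of the arrays of 1 contrast, whose small number limits the precision.

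ATM is a protein kinase that is activated at DNA double-strand breaks and passes the signal to repair, to cell-cycle arrest and, in plants, to the transcription factor SOG1. Plants that lack ATM function are known to be sensitive to ionizing radiation and to lose much of the early transcriptional response to it. The related kinase ATR, which senses single-stranded DNA at stalled replication forks, remains in such plants. ATM itself has no probe set with a single named gene in the annotation used here, so its transcript could not be used to check the genotype. The mutant is represented by 1 allele. In pools of whole seedlings, fewer cells of a type and less RNA per cell cannot be told apart. Leaf-type and root-type transcripts were both present. PSAN, a photosystem I subunit, read 13.05 and 13.18 in irradiated atm-1 and 12.90 and 12.94 in unirradiated atm-1 on the deposited log2 scale, and it was the 1 measured member of 15 shoot markers. EXPA7, a root hair expansin, read 5.49 and 5.71 against 5.58 and 5.21, and EXPA18, another root hair expansin, read 5.52 and 5.49 against 5.08 and 4.84. Those were the 2 measured root markers of 8, and none of 5 seed or 3 flower markers was measured.

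Replicate 1 of the irradiated atm-1 group stands apart from the other arrays. Its median over all probe sets was 5.73, below the 5.82 to 5.98 of the other 43 arrays, and its upper quartile was 7.51, below their 7.70 to 7.79. The irradiated pair correlated at r = 0.990, under the 0.992 to 0.997 of the other 21 replicate pairs. The SD of its replicate difference, 0.318, was above their 0.168 to 0.284. The tests use a spread shared over all groups, which does not stand for this pair alone. All 18 hybridisation control probe sets, which report RNA added in known amounts, read lower on replicate 1 than on replicate 2, by a median of log2 0.23, although their median on replicate 1, 8.74, lay inside the 8.67 to 9.25 of the other arrays. The 3′ minus 5′ difference of the actin controls, a sign of RNA integrity, was 2.95 on replicate 1 and lay inside the range of the other arrays, 2.25 to 3.34. By level, the shift was uneven. Among genes with a mean level between log2 6.49 and 7.36 the median difference from the control mean was -0.29 on replicate 1 and -0.04 on replicate 2. Among genes between log2 3.58 and 3.92 it was 0.09 on replicate 1 and 0.02 on replicate 2. Counts that differed without this array are also given without it.

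**Figure D1:**
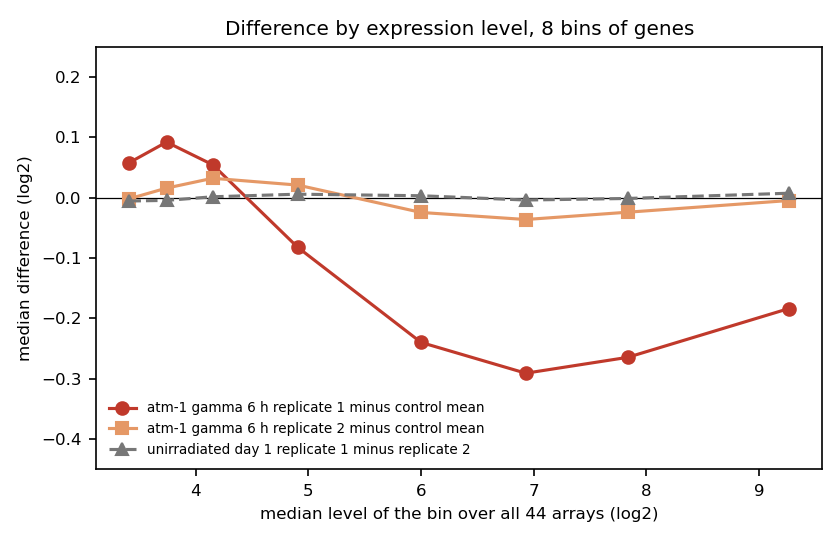
Median difference (log2) in 8 equal bins of genes, against the median level of the bin over all arrays, for each irradiated atm-1 array minus the mean of the unirradiated atm-1 arrays, and between those unirradiated arrays. Replicate 1 falls to -0.29 in the bin centred at log2 6.93, where replicate 2 stays at -0.04.

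The first comparison asks what differed in atm-1 seedlings 6 h after gamma rays. Of 13356 genes tested with limma on the log2 values, 1007 were higher (7.54%) and 2060 were lower (15.4%) in irradiated than in unirradiated atm-1 seedlings at a Benjamini-Hochberg adjusted p under 0.05. A gene past that threshold is named as called. Both irradiated arrays lay above both unirradiated arrays for 2906 genes (21.8%) and below both for 4019 (30.1%). The split between higher and lower calls moved with replicate 1 and with the scaling. Without replicate 1 the counts were 774 higher (5.8%) and 1024 lower (7.67%), and after cyclic loess scaling of all arrays they were 1415 higher (10.6%) and 1461 lower (10.9%). The share of calls that were higher was 32.8% as deposited, 43.0% without replicate 1, 49.2% after cyclic loess, 45.6% after quantile normalisation and 50.5% with array medians centred. Among the 2060 lower genes, 83.7% read lower on replicate 1 than on replicate 2, against 56.8% of the 1007 higher genes. Single control arrays mattered as well, since 602 genes were higher and 1411 lower without unirradiated replicate 1, and 561 higher and 1426 lower without its replicate 2. A subset of 305 higher (2.28%) and 853 lower (6.39%) genes was called in every one of the fits that left out 1 of the 4 arrays, and after cyclic loess all 305 and 843 of the 853 were again called the same way.

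The genes that rose most in atm-1 at 6 h reached changes of log2 2.23 to 4.36 among those called with each array left out. At the top stood AT3G62550, a universal stress protein gene, with levels of 10.15 and 10.31 in irradiated atm-1 against 5.83 and 5.90 in unirradiated atm-1, a change of 4.36 (SE 0.18, adjusted p 4.05e-17). AT1G70820 read 9.60 and 9.59 against 5.39 and 5.59, a change of 4.10 (SE 0.18). CCL, named for its likeness to a clock-regulated RNA-binding protein gene, read 11.12 and 11.21 against 7.52 and 7.49, a change of 3.66 (SE 0.13). For each of these genes, chosen for the size of their rise, the replicates lay close together and the groups far apart. ORA47, an ERF-type transcription factor of jasmonate signalling, read 8.65 and 8.10 in irradiated atm-1 against 4.90 and 4.95 in unirradiated atm-1, a change of 3.45 (SE 0.53, adjusted p 1.49e-05). Fes1B, an exchange factor of Hsp70 chaperones, read 7.27 and 7.11 against 4.59 and 4.37, a change of 2.71 (SE 0.18). The other members of the highest 12 were AT5G62360 at 2.55, AT4G30660 at 2.37, AT4G30650 at 2.33, AT1G73480 at 2.28, AT2G03310 at 2.26, AR781 at 2.23 and AT1G33970 at 2.23. Of the 12, 11 were also called higher in irradiated WT, beside 11.8% of all genes and with the same gap in clock time. The exception was ORA47, which read 5.79 and 6.03 in irradiated WT against 4.79 and 5.05 in unirradiated WT (change 0.99, SE 0.53, adjusted p 0.193).

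The genes that fell most in atm-1 lay between log2 -2.02 and -2.35 among those called with each array left out. AT5G12110 read 7.29 and 7.64 in irradiated atm-1 against 9.85 and 9.78 in unirradiated atm-1, a change of -2.35 (SE 0.16, adjusted p 5.71e-12). AT1G50040 read 4.96 and 4.90 against 7.14 and 7.38, a change of -2.33 (SE 0.21). CHIL, a chalcone isomerase-like protein that aids flavonoid synthesis, read 6.17 and 6.63 against 8.56 and 8.63, a change of -2.19 (SE 0.24). HYH, a bZIP transcription factor of light signalling and the homologue of HY5, read 5.68 and 5.80 against 7.89 and 7.73, a change of -2.07 (SE 0.16). GAT1_2.1, a glutamine amidotransferase gene, read 6.73 and 7.04 against 9.07 and 8.88, a change of -2.09 (SE 0.33). In none of these genes, chosen for the size of their fall, did the groups overlap, and 30.1% of all genes lay below both controls in this way. The rest of the 12 were AT4G27350 at -2.21, AT1G55960 at -2.21, AT5G47610 at -2.13, AT3G50560 at -2.12, AT4G39675 at -2.04, AT5G66230 at -2.03 and AT5G16250 at -2.02. Replicate 1 read farther from the controls than replicate 2 in 10 of these 12 genes, against 5 of the 12 highest. Without replicate 1 the change of AT5G16250 was -1.66 and that of AT5G12110 was -2.18. Whether the calls of the 12 hold without replicate 1 cannot be judged here, since such calls were a condition of their choice. Irradiated WT was called lower for all 12 (14% of all genes), with changes of -1.16 to -3.07 and the same gap in clock time.

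**Figure D2:**
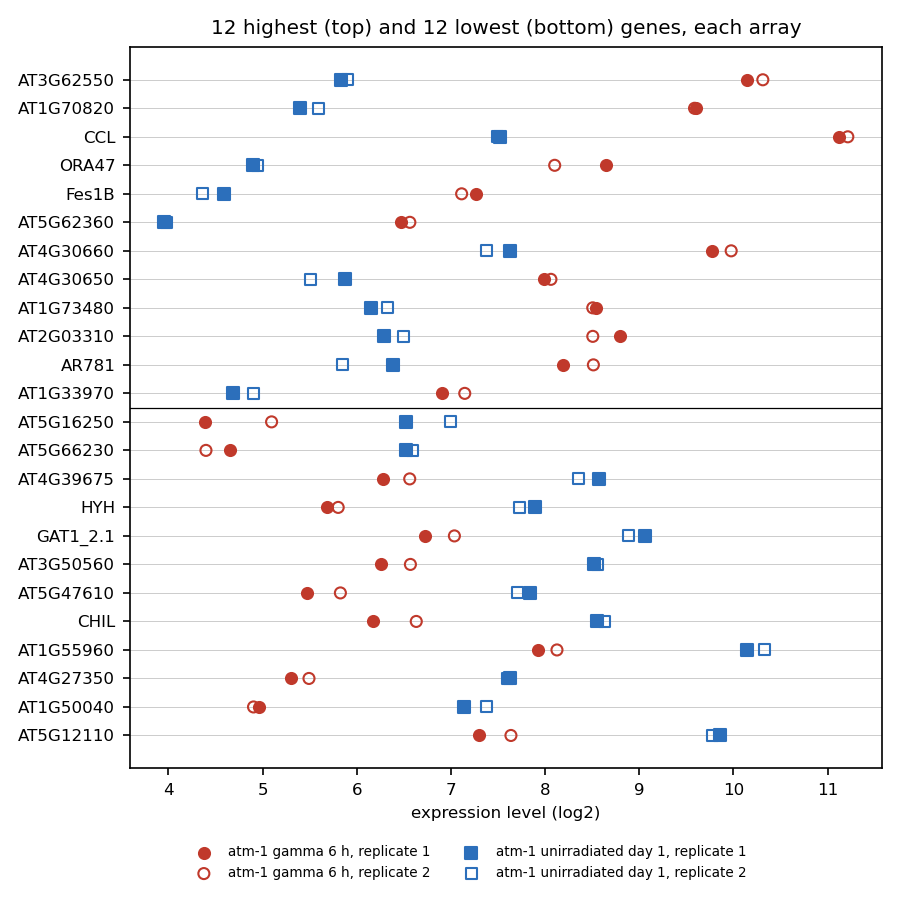
Level (log2) on each of the 4 arrays for the 12 highest and 12 lowest genes in irradiated against unirradiated atm-1 seedlings, circles for irradiated and squares for unirradiated. In all 24 genes, chosen for large changes in this contrast, the irradiated pair lies apart from the unirradiated pair, by mean differences from 2.02 to 4.36 in size. Over all genes, both irradiated arrays lay above both unirradiated arrays in 21.8% and below both in 30.1%.

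A set of 14 genes that rose early in irradiated WT seedlings was examined next. The set was chosen with this series' own WT and atm-1 values known, so neither its changes in WT nor its differences between the genotypes are independent evidence. In atm-1 at 6 h, 13 of the 14 rose, 9 of them also with each of the 4 arrays left out, against 7.54% and 2.28% of all genes, and the median of the 14 changes was log2 0.95 in atm-1 beside 3.26 in WT (-0.02 and -0.03 over all genes). The largest rises in atm-1 belonged to AT2G47680, with 6.00 and 6.70 in irradiated atm-1 against 4.66 and 4.21 in unirradiated atm-1 (change 1.92, SE 0.17, adjusted p 1.59e-09), and to AT4G22960, with 6.72 and 7.24 against 5.11 and 5.18 (change 1.83, SE 0.18). AT5G11460 rose by 1.41, AT5G67460 by 1.22, AT5G48020 by 1.08, the zinc finger gene AT5G60250 by 1.04 and AT3G42860 by 0.89. ATMND1, a partner of meiotic recombination proteins that is also a DNA damage marker in plants, read 4.90 and 5.28 in irradiated atm-1 against 4.05 and 4.10 in unirradiated atm-1 (change 1.01, SE 0.16, adjusted p 1.96e-05). Both irradiated arrays stood above both unirradiated arrays in 13 of the 14 genes, beside 21.8% of all genes. The forkhead-associated (FHA) gene AT2G45460 overlapped, with 5.41 and 6.10 against 5.68 and 5.20, and was not called (change 0.32, adjusted p 0.162).

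Every one of the 14 genes stood lower in irradiated atm-1 than in irradiated WT on both arrays, and the change in atm-1 was smaller than that in WT by log2 1.06 to 3.19 (all 14 called for this difference, beside 4.04% of all genes called lower, a difference that the choice of the set favours). How many of all genes stood lower on both arrays in this way was not counted. The kinesin-like gene AT5G23910 read 5.30 and 5.76 in irradiated atm-1 and 7.79 and 7.84 in irradiated WT, beside 5.04 and 4.95 in unirradiated atm-1 and 4.49 and 4.46 in unirradiated WT. Its change was 0.53 in atm-1 (SE 0.19, adjusted p 0.0413) and 3.34 in WT (SE 0.19). In atm-1 that change ran from 0.30 to 0.76 with 1 array left out, and 3 of the 4 leave-outs ended the call, all but that of irradiated replicate 1. AT3G48770 changed by 0.47 in atm-1 (adjusted p 0.0444, called in 1 of the 4 leave-outs) and 3.65 in WT, AT4G25330 by 0.65 and 3.65, AT2G18600 by 0.62 and 3.19, and AT3G45730 by 0.63 and 3.14. Without replicate 1, 12 of the 14 were called higher in atm-1: AT2G45460 then passed the test (change 0.66, adjusted p 0.00474), and AT3G45730 (0.50, adjusted p 0.133) and AT3G48770 (0.55, adjusted p 0.0806) did not. Of the 14, 12 had a higher mean level in atm-1 at 6 h than at 1.5 h. At 12 h, 13 had a higher mean than at 6 h, beside 7067 of all 13356 genes. These 6 h means include replicate 1, and the count was not made on replicate 2 alone. On replicate 2, AT4G22960 (7.24 against 7.18), AT5G11460 (6.65 against 6.46) and AT2G47680 (6.70 against 6.67) read above their 12 h means. Others, such as ATMND1 (5.28 against 5.38), did not.

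**Figure D3:**
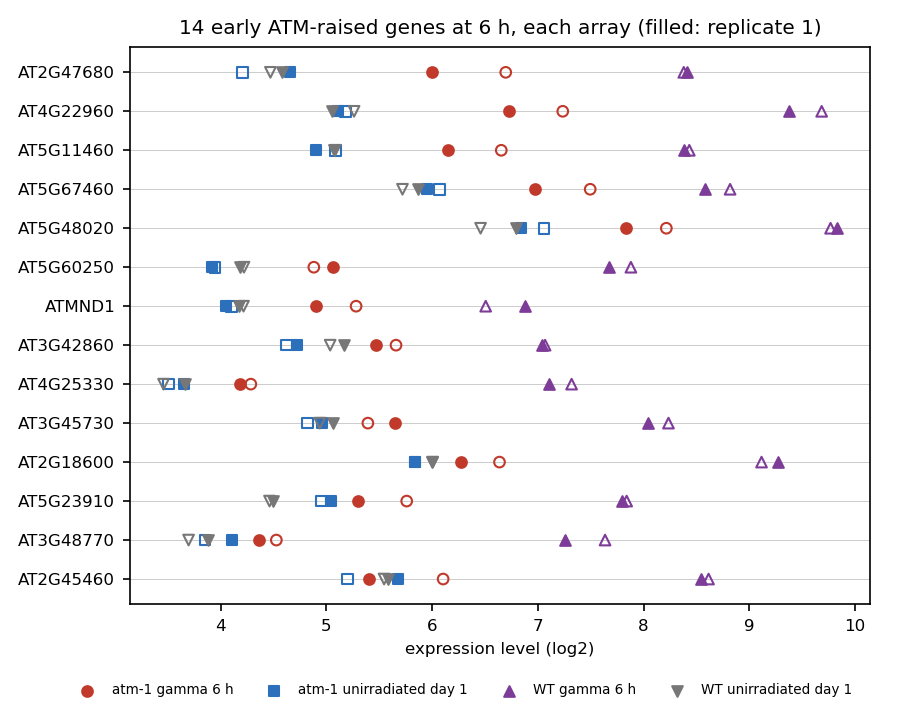
Level (log2) on each array of irradiated and unirradiated atm-1 and WT seedlings for the 14 early genes, ordered by their change in atm-1. The irradiated atm-1 arrays lie below the irradiated WT arrays in all 14 and above the unirradiated atm-1 arrays in 13 (21.8% of all genes).

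Of 7 measured members of a list of 44 DNA repair and damage-signalling genes, ATMND1 alone was called in atm-1 at this time. The others were POLH, a polymerase that copies past damaged bases, with 3.99 and 4.32 in irradiated atm-1 against 4.10 and 4.37 in unirradiated atm-1 (change -0.08), ATLIG4, the ligase of end joining (0.03), RAD5 (0.17), RAD51B (-0.02), RECQ4A (-0.01) and AT4G32700 (-0.09). POLH rose in WT, by 0.54, and the change in atm-1 was lower than that in WT by 0.62 (SE 0.19, adjusted p 0.0443).

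Genes of mitosis were mostly lower after gamma in both genotypes. Of 8 measured members of a 36-gene list, 5 fell and none rose in atm-1 (15.4% and 7.54% of all genes), with a median change of log2 -0.53, and all 8 fell in WT (14% of all genes), with a median of -0.71. AUR2, an Aurora kinase of the mitotic spindle, read 5.23 and 4.99 in irradiated atm-1 against 6.76 and 7.05 in unirradiated atm-1, a change of -1.79 (SE 0.18, adjusted p 1.48e-08) beside -1.82 in WT. The difference between the genotypes for AUR2 was 0.03 (SE 0.26). AUR1, its close relative, read 6.29 and 6.77 against 7.71 and 7.69, a change of -1.17 (SE 0.16) beside -1.88 in WT. The fall of 3xHMG-box2, a chromosome-binding protein of dividing cells, was smaller in atm-1: it read 6.19 and 6.45 in irradiated atm-1 against 7.55 and 7.64 in unirradiated atm-1, and 4.82 and 5.01 in irradiated WT against 7.73 and 7.54 in unirradiated WT. Its change was -1.28 (SE 0.21) in atm-1 and -2.72 in WT, a difference of 1.44 (SE 0.30, adjusted p 0.00245). KINESIN-12B, a motor of the cell plate scaffold, fell by 0.68, and 3xHMG-box1 by 0.38, a call lost in each of the 4 leave-outs. AUR3 (-0.31), the checkpoint protein gene BUB3.1 (-0.25) and the centromere histone gene HTR12 (-0.14) were not called. The count of 5 was the same without replicate 1, but over other members: HTR12 passed (-0.45) and 3xHMG-box1 did not (adjusted p 0.104).

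Several replication and histone genes had smaller falls in atm-1 than in WT. Over all genes, 2.14% were called for a positive difference between the genotypes. Of 7 measured members of a 34-gene list, 3 fell and 1 rose in atm-1 (15.4% and 7.54% of all genes; 2 and 1 without replicate 1), against 5 and 1 in WT (14% and 11.8%), and 3 were called for a difference between genotypes, each with a smaller fall in atm-1. HTB2, a histone H2B gene, read 6.66 and 6.87 in irradiated atm-1 against 7.37 and 7.34 in unirradiated atm-1, and 5.27 and 5.29 in irradiated WT against 7.40 and 7.41 in unirradiated WT. Its change of -0.59 (SE 0.15) in atm-1 and -2.13 in WT differed by 1.54 (SE 0.22, adjusted p 1.83e-05). The fall in atm-1 was not called without replicate 1 (-0.49, adjusted p 0.0801). TOPII, the topoisomerase that untangles replicated DNA, fell by 0.86 in atm-1 and by 1.97 in WT (difference 1.11, SE 0.27, adjusted p 0.0120). HTB1, another H2B gene, changed by -0.74 in atm-1 and -1.36 in WT (difference 0.63, adjusted p 0.0446). AT2G28720, listed with the histone genes, rose instead, with 7.35 and 7.89 in irradiated atm-1 against 5.58 and 5.62 in unirradiated atm-1 (change 2.02, SE 0.14), and by 2.29 in WT. PRL, a replicative helicase subunit gene (-0.28), HTB4 (-0.10) and HTB11 (-0.08) were not called in atm-1.

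The clock list had 2 measured members of 36, CCL and GI, and both rose. GI, a clock protein whose transcript peaks late in the light period, read 8.54 and 8.64 in irradiated atm-1 against 6.69 and 6.65 in unirradiated atm-1, a change of 1.92 (SE 0.13, adjusted p 1.18e-12). In WT GI changed by 1.88, and the genotypes differed by 0.04 (SE 0.18). The atm-1 seedlings given HZE and collected near the same clock time had GI levels of 8.34 and 8.48, and the gamma group differed from them by 0.18 (adjusted p 0.284). CCL was lower than in that group, where it read 12.66 and 12.53, by 1.43 (adjusted p 1.00e-10).

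Genes of the sugar starvation response include many that break down leucine to feed respiration. Of 12 measured members of a 33-gene list, 6 fell and 1 rose in atm-1 (15.4% and 7.54% of all genes), with a median change of log2 -0.41, and 4 of the 6 were still called lower without replicate 1 (median -0.22). MCCA, a subunit of methylcrotonyl-CoA carboxylase in leucine breakdown, read 7.61 and 8.02 in irradiated atm-1 against 9.03 and 9.00 in unirradiated atm-1, a change of -1.20 (SE 0.27, adjusted p 0.00113). AKINBETA1, the beta subunit of SnRK1, a kinase that responds to low energy, read 8.38 and 8.28 against 9.54 and 9.31, a change of -1.10 (SE 0.20). IVD, the isovaleryl-CoA dehydrogenase of the same pathway, fell by 0.94 (SE 0.19) and AT2G26800 by 0.69 (SE 0.12). PPDK (-0.82), of pyruvate metabolism, and ETFQO (-0.46), which passes electrons from this pathway to respiration, were called on all arrays but not without replicate 1 (adjusted p 0.291 and 0.677). The riser was AT3G62550. MCCB, the partner subunit of MCCA, had a change of -0.37 (adjusted p 0.132). None of the 12 was called for a difference from WT, where 4 fell.

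Of 4 measured members of a 15-gene flavonoid list, 3 fell in atm-1 (15.4% of all genes; 2 without replicate 1) and 3 in WT (14%). UGT78D1, which adds rhamnose to flavonols, read 7.09 and 7.25 in irradiated atm-1 against 8.37 and 8.52 in unirradiated atm-1, a change of -1.27 (SE 0.17, adjusted p 1.86e-06). UGT78D2, which adds glucose, fell by 0.71 (SE 0.14), and DFR, an enzyme of the anthocyanin branch, by 0.62 (SE 0.19), though DFR was not called without replicate 1 (-0.50, adjusted p 0.175). AT4G14090 had a change of 0.23 and was not called.

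Among iron response genes, 2 of 5 measured members of 24 rose, beside 7.54% of all genes, and neither was called in all 4 leave-outs. AT1G47400 read 9.14 and 9.40 in irradiated atm-1 against 7.59 and 8.40 in unirradiated atm-1 (change 1.28, SE 0.28), and PYE, a transcription factor of the response to iron shortage, read 6.43 and 6.86 against 5.65 and 6.10 (change 0.77, SE 0.18). BHLH101, a related transcription factor gene (0.67), and AT1G74770 (-0.34) were not called. AT1G18910 fell by 0.44 on all arrays, with 5.61 and 6.32 against 6.49 and 6.31, but its change was -0.09 without replicate 1. Of 4 measured rapid stress genes of 22, STZ, a zinc finger repressor of the stress response, rose, with 8.55 and 8.54 against 7.08 and 6.54 (change 1.74, SE 0.46, adjusted p 0.00570, called in 3 of the 4 leave-outs). WRKY53, AT4G29780 and AT4G27652 had changes of 0.34, 0.72 and -0.63 and were not called. The cold list had 4 measured members of 13, of which COR15A, a chloroplast-protecting cold protein gene, fell by 0.78 (SE 0.24, adjusted p 0.0164; -0.54 and not called without replicate 1), beside a change of -1.90 in WT. COR15B (0.24), COR47 (0.32) and LTI30 (0.29) were not called. Of 3 measured glucosinolate genes of 24, the glucosyltransferase gene UGT74B1 rose by 0.58 on all arrays, a call lost in 3 of the 4 leave-outs (adjusted p 0.0658 to 0.121), while BCAT4 (0.82) and GSTU20 (0.69) were not called. The 1 measured heat gene of 11, ATHSP22.0, had a change of -0.09.

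Of 11 measured autophagy genes, which serve the recycling of cell contents, 2 rose in atm-1 (7.54% of all genes, median log2 0.17) and 8 in WT (11.8%, median 0.65). Of the 11, 3 were called for a smaller change in atm-1, beside 4.04% of all genes called lower for this difference. ATG8B, a ubiquitin-like protein of the forming vesicle, read 6.34 and 6.75 in irradiated atm-1 against 6.53 and 6.47 in unirradiated atm-1, and 7.47 and 7.50 in irradiated WT against 6.66 and 6.66 in unirradiated WT. Its change differed by -0.78 (SE 0.21, adjusted p 0.0203). For ATG8C the difference was -0.64 (adjusted p 0.00441) and for ATG3, the conjugating enzyme, -0.58 (adjusted p 0.0220). Replicate 1 read lower than replicate 2 in these genes, and the 3 differences from WT were not followed without replicate 1. Without it 3 of the 11 were called higher in atm-1 and the median change was 0.34, and after cyclic loess 4 were called and the median was 0.31.

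Of 29 expansin and XTH genes, which loosen or remodel the wall, 5 rose and 6 fell (3 and 4 without replicate 1), beside 7.54% and 15.4% of all genes. XTH32 read 8.04 and 8.30 in irradiated atm-1 against 9.97 and 9.97 in unirradiated atm-1 (change -1.79, SE 0.13), and EXLA2 fell by 1.18. XTH20 rose in atm-1, with 5.61 and 5.25 against 4.68 and 4.52 (change 0.83, SE 0.13), beside -0.16 in WT, a difference of 0.99 (SE 0.19, adjusted p 0.00123), and XTH19 rose by 0.82, a call lost in 2 of the 4 leave-outs. Of 47 UGT genes 9 rose and 6 fell (9 and 4 without replicate 1), shares not far from those of all genes, with UGT73B5 at 0.82 and UGT84A3 at 0.77 among those that rose and UGT76C2, which glucosylates cytokinins, at -0.86.

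Other families were counted by their names, a choice made after the values were seen, and their counts are read beside 7.54% higher and 15.4% lower over all genes. Of 12 subunits of the nuclear RNA polymerases, 6 fell and none rose (median log2 -0.34, and -0.16 with 4 lower without replicate 1). NRPA2, the second subunit of the polymerase that transcribes ribosomal RNA, read 6.89 and 7.42 in irradiated atm-1 against 8.19 and 8.08 in unirradiated atm-1 (change -0.98, SE 0.11), and its partner NRPA1 fell by 0.87. The largest falls among the others were those of NRPB12 (-0.82) and NRPC2 (-0.69). Of 13 glutathione transferase genes, 4 rose and 1, GSTF4, fell (4 and none without replicate 1), led by GSTU22 with 9.22 and 9.79 against 8.11 and 7.88 (change 1.51, SE 0.20) and GSTU25 at 1.35. GSTU18 rose by 0.45 in atm-1 and 1.50 in WT, a difference of -1.05 (SE 0.16, adjusted p 6.47e-05). Of 20 beta-glucosidase genes, 4 rose and 5 fell (3 and 4 without replicate 1), with BGLU44 at 2.16 and BGLU46 at -1.46. Of 7 tubulin genes, 3 rose and 1 fell (2 and none without replicate 1), but 1, TUB5, was called in all 4 leave-outs, and it read 10.35 and 10.41 against 9.26 and 9.31 (change 1.09, SE 0.13). Among 26 cytochrome P450 genes, 3 rose and none fell (3 and 1 without replicate 1). CYP71B26 changed by 1.08 in atm-1 and 0.09 in WT, a difference of 0.98 (SE 0.19, adjusted p 0.00166). Of 69 plastid-encoded genes, 4 rose and 9 fell in atm-1 (6 and 5 without replicate 1), near the shares of all genes, against 19 and 4 in WT. Plastid readings come from RNA reverse transcribed with a poly(T) primer, and how well it captures plastid transcripts was not tested. The photosystem II genes psbD, with 10.59 and 10.70 against 11.96 and 12.06 (change -1.37, SE 0.21), and psbC (-0.97) fell. Falls of petN (-1.15) and petG (-1.23), of the cytochrome b6f complex, were not called without replicate 1.

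**Figure D4:**
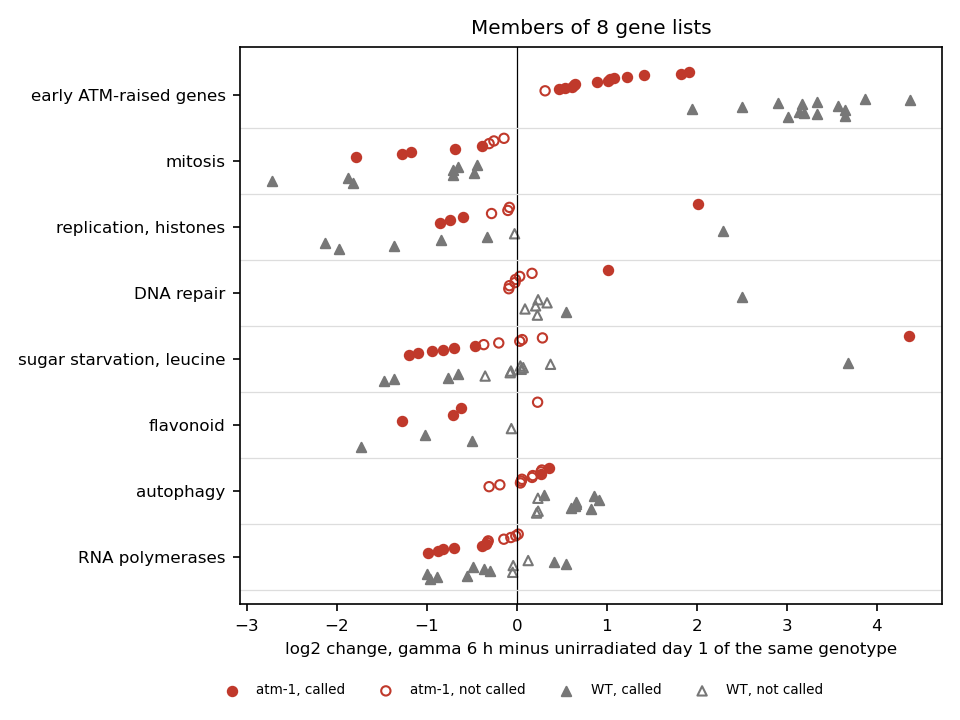
Log2 change at gamma 6 h against unirradiated day 1 for each measured member of 8 gene lists, circles for atm-1 and triangles for WT, filled where called at an adjusted p under 0.05. The early genes lie between 0.32 and 1.92 in atm-1 and between 1.95 and 4.37 in WT, while the mitosis genes lie below 0 in both genotypes.

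Side by side, the contrasts of the genotypes share no array. Of the 1007 genes higher in atm-1, 487 (48.4%) were also higher in WT, where 11.8% of all genes were called higher, and these were 30.9% of the 1576 higher in WT. Of the 2060 lower in atm-1, 1153 (56.0%) were lower in WT, where 14% of all genes were called lower, which is 61.9% of the 1864 lower in WT. For the genes called with each array left out the shares were 76.4% of 305 and 76.2% of 853. Changes in the genotypes correlated across genes at r = 0.62 over all 13356, a description in which genes are not independent and both contrasts hold the same gap in clock time. Opposite calls were made for 24 genes higher in atm-1 and lower in WT and for 35 the other way.

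Taking the change in atm-1 minus that in WT, 286 genes had a called positive difference (2.14%) and 540 a called negative one (4.04%). The split moved with the arrays and the scaling here as well: without replicate 1 it was 148 positive and 186 negative, after cyclic loess 345 and 367, after quantile normalisation 345 and 423, and with medians centred 433 and 371. Without replicate 2 the counts were 902 and 1396. Other arrays also mattered, with 140 and 303 without WT gamma 6 h replicate 1, 152 and 278 without its replicate 2, 129 and 289 without WT unirradiated replicate 1, 153 and 310 without atm-1 unirradiated replicate 1, and 133 and 292 without its replicate 2. Of the genes called in atm-1, 188 of the 1007 higher and 218 of the 2060 lower ones were called for this difference, in either direction. The difference holds the same 4 atm-1 arrays as the first comparison, which favours such an overlap, so these counts are a description only.

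Among genes called on the positive side ORA47 had the highest difference, 2.46 (SE 0.75, adjusted p 0.0463). That call is at the edge of the threshold, and it was lost without any 1 of 7 of the 8 arrays of the comparison, with adjusted p from 0.0946 to 0.21. ATLP-1, a thaumatin-like protein gene, read 7.68 and 7.66 in irradiated atm-1 against 8.13 and 8.21 in unirradiated atm-1, and 5.17 and 5.08 in irradiated WT against 8.15 and 7.83 in unirradiated WT, a difference of 2.37 (SE 0.22, adjusted p 1.87e-08). AT3G15680 followed the same order, with a change of -0.66 in atm-1 and -2.86 in WT (difference 2.20, SE 0.20). AT2G16005 moved in opposite directions. It read 10.14 and 10.29 in irradiated atm-1 against 9.27 and 8.92 in unirradiated atm-1, and 9.53 and 9.53 in irradiated WT against 10.59 and 10.68 in unirradiated WT, a difference of 2.23 (SE 0.31, adjusted p 1.42e-05). AT2G12190 read unevenly on the irradiated atm-1 arrays, with 6.33 and 4.85 against 4.45 and 4.94 in unirradiated atm-1. Its difference was 2.11 (SE 0.38) on all arrays and 1.37 without replicate 1. The lowest 5 genes were AT3G48770 (-3.19), AT2G21640 (-3.05), AT4G25330 (-3.00), AT5G23910 (-2.80) and AT2G45460 (-2.69), of which AT2G21640 is not among the 14 early genes. AT2G21640 read 5.98 and 6.21 in irradiated atm-1 against 5.38 and 5.24 in unirradiated atm-1, and 8.54 and 8.79 in irradiated WT against 4.60 and 5.07 in unirradiated WT.

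Set against atm-1 seedlings collected 1.5 h after HZE at nearly the same clock time, atm-1 seedlings 6 h after gamma had 2219 genes higher (16.6%) and 3104 lower (23.2%). These groups differ in radiation, dose and time since exposure at once, and those cannot be told apart. The highest genes in the gamma group were AT1G73600, with 8.31 and 8.84 after gamma and 4.36 and 4.27 after HZE (difference 4.26, SE 0.34), AT1G04770 at 4.07 and GH9C2, a glycosyl hydrolase family 9 gene of the cellulase group, at 4.00. The lowest were AT1G19530, with 4.20 and 5.10 after gamma and 10.58 and 10.46 after HZE (difference -5.87, SE 0.49), AT4G37220 at -5.29 and MCCA at -4.97. All 12 measured genes of the sugar starvation list were lower after gamma, with a median difference of log2 -2.53: MCCA read 7.61 and 8.02 after gamma and 12.83 and 12.73 after HZE, PPDK differed by -4.79, IVD by -4.41, AKINBETA1 by -3.70 and MCCB by -3.59. All 11 autophagy genes were lower too, by a median of -0.68. Of the 7 replication and histone genes, 5 were higher after gamma, among them HTB1 by 1.06 and HTB2 by 0.86, while 6 of 8 mitosis genes were lower. Of the 14 early genes, 10 were higher after gamma and AT3G45730 was lower (-2.19). Glucosinolate genes were 3 of 3 higher, with BCAT4 at 3.51 and GSTU20 at 3.36.

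Within atm-1, levels after gamma were followed at 1.5, 6, 12 and 24 h, collected at 10:10 am, 2:55 pm and 8:40 pm of day 1 and 8:40 am of day 2, with unirradiated groups at 10:45 am of day 1 and 9:15 am of day 2. No test was made across these levels. Of the 12 highest genes at 6 h, 9 stood higher still at 12 h, and none stood higher at 24 h than at 6 h. AT3G62550 read 6.20 and 5.71 at 1.5 h, then 10.15 and 10.31 at 6 h and 12.18 and 12.27 at 12 h. By 24 h its levels were 6.64 and 6.13, beside 8.65 and 8.53 in the day 2 control, and CCL followed the same order up to 12 h. AT5G62360 went on to 9.68 and 9.61 at 12 h. ORA47 was high at 6 h alone, with 4.94 and 4.91 at 1.5 h and 5.36 and 5.28 at 12 h. AT1G73480 was also past its peak at 12 h, at 5.73 and 5.66, below the 6.15 and 6.33 of the day 1 control. Of the 12 lowest genes, 9 stood lower still at 12 h, and the 24 h level of 7 was above that of the day 2 control. HYH reached 4.39 and 4.60 at 12 h and was 9.15 and 9.22 at 24 h. Mean levels were higher at 12 h than at 6 h in 7 of the 8 mitosis genes and in all 7 replication and histone genes, beside 7067 of all 13356 genes. The 6 h means here include the low replicate 1. The 3xHMG-box2 level was 7.08 and 7.16 at 1.5 h, then 6.19 and 6.45 (6 h) and 8.31 and 8.30 (12 h), and HTB2 read 7.18 and 7.45, then 6.66 and 6.87, then 7.99 and 7.94, both at their lowest of these 3 times at 6 h and above the day 1 control at 12 h. AUR2 stayed low, with 5.67 and 5.89 at 12 h, and reached 6.54 and 6.28 by 24 h, beside 6.58 and 6.36 in the day 2 control. The early gene AT2G47680 stood at 5.05 and 4.89 at 1.5 h and at 6.00 and 6.70 by 6 h, then at 6.57 and 6.76 (12 h) and 6.18 and 6.13 (24 h). PYE ran another course, with its highest level at 1.5 h (8.45 and 8.63) and a low one at 6 h (6.43 and 6.86).

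**Figure D5:**
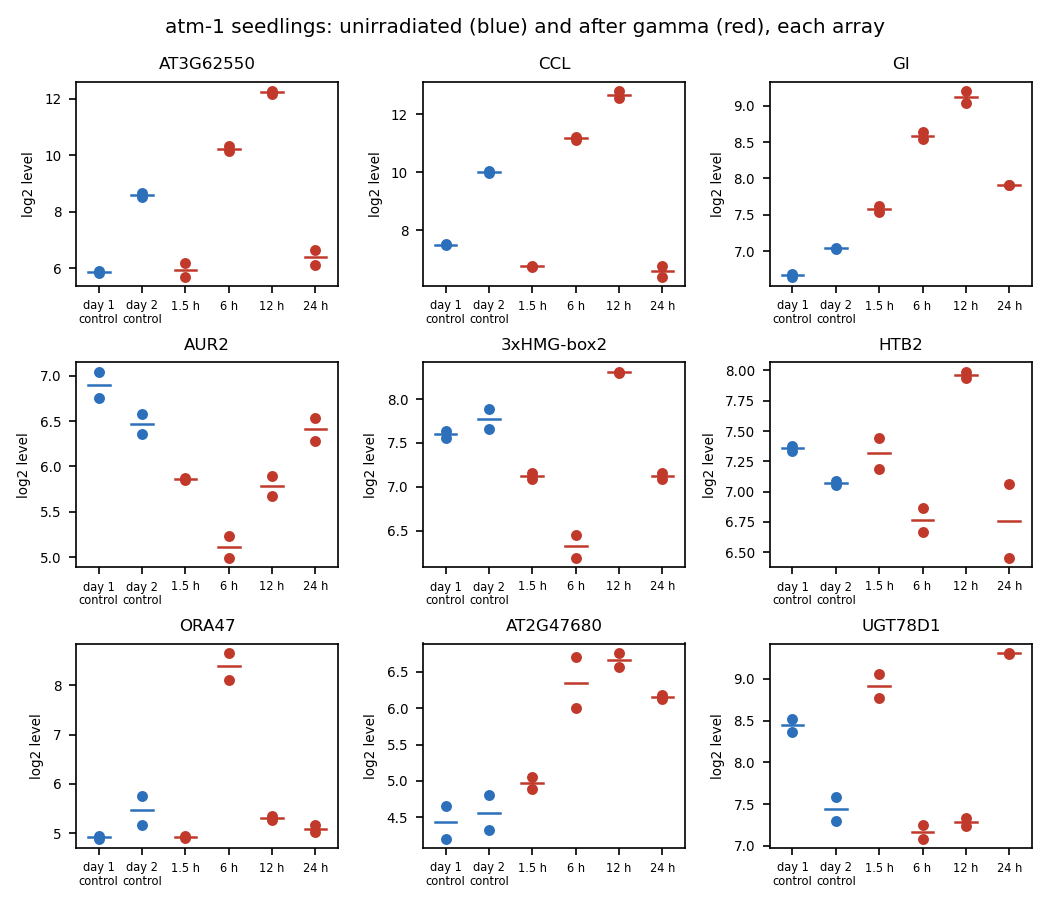
Level (log2) of 9 genes on each atm-1 array, blue for the unirradiated groups of day 1 and day 2 and red for gamma at 1.5, 6, 12 and 24 h, with bars at the group means and a separate axis range for each gene. ORA47 stands high at 6 h alone, 3xHMG-box2 and HTB2 are lowest among the first 3 times at 6 h, and AT3G62550, CCL and GI reach their highest level at 12 h.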

How the data were processed

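RNA was reverse transcribed with a poly(T) primer, labelled with biotin and hybridised to 1-colour Affymetrix arrays, per the labels' protocols. The unit of the deposited values is log2 intensity per probe set, and the authors used GCOS 1.2, RMA and affy, per the submitters' processing notes. Whether all arrays were normalised together is not given in the sources used here. RMA pulls arrays towards a common distribution, so a median that still differs is a property of the deposited values.

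The values were used as deposited. Of 22810 probe sets, 64 controls were left out, and the 13513 that the platform annotation pairs with 1 gene gave 13356 genes, taking the probe set of highest mean for the 146 genes with several. Names came from RefSeq (13436 matched, 77 kept the annotation's name). limma 3.58.1 in R 4.3.3 fitted the means of all 22 groups (lmFit, contrasts.fit and eBayes with no trend; 22 degrees of freedom from residuals and 7.82 from the prior), with Benjamini-Hochberg adjustment over the 13356 genes. The fit was tested on simulated data.

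The genes named in the text are, among those called also with each of the 4 arrays left out, the 12 highest and 12 lowest, then up to 4 called members of a list with the largest change and those needed to describe it, the 14 early genes, 5 at each end of the genotype difference and 3 at each end of the comparison with HZE. Genes with opposite calls in the genotypes and the families counted by name were added later. The members and lists were chosen with earlier results of these data known, and lists are described by counts and medians without a test. Same-numbered replicates did not pair: deviations from the group means correlated at -0.04 between the atm-1 groups and at -0.17 to 0.24 over 231 pairs of groups. Promoter motifs were not analysed here. Alternatives are given in the closing section.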

Additional observations from a re-analysis of the deposited data

Results flagged for a closer look

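Differences between the genotypes were called for 36 of the genes named above, by the test of the difference itself (change in atm-1 minus change in WT at gamma 6 h, limma adjusted p under 0.05). Over all genes 2.14% were called on the positive side and 4.04% on the negative side. The 36 include the early genes, chosen with these values known, and the 5 at each end, named from this same test. Their number is therefore no independent evidence. In the 14 early genes all differences were negative: AT3G48770 had -3.19, AT4G25330 -3.00, AT5G23910 -2.80, AT2G45460 -2.69, AT2G18600 -2.58, AT4G22960 -2.54, AT5G60250 -2.53, AT3G45730 -2.51, AT5G48020 -2.10, AT2G47680 -1.95, AT5G11460 -1.92, AT5G67460 -1.68, ATMND1 -1.48 and AT3G42860 -1.06. Further negative differences were -3.05 for AT2G21640, -1.17 for AT1G50040, which fell more in atm-1, -1.05 for GSTU18, -0.94 for GSTF4, -0.78 for ATG8B, -0.64 for ATG8C, -0.62 for POLH and -0.58 for ATG3. Positive differences at genes of the cell cycle and chromosomes were 1.54 for HTB2, 1.44 for 3xHMG-box2, 1.11 for TOPII and 0.63 for HTB1, each with a smaller fall in atm-1. The other positive differences were 2.46 for ORA47, 2.37 for ATLP-1, 2.23 for AT2G16005, 2.20 for AT3G15680, 2.11 for AT2G12190, 1.12 for COR15A, 1.01 for AT1G73480, 0.99 for XTH20, 0.98 for CYP71B26 and 0.94 for AT5G47610. As given above, the call of ORA47 is at the edge of the threshold, and the difference of AT2G12190 was 1.37 without replicate 1 of irradiated atm-1. The calls of HTB1 (limma adjusted p 0.0446), POLH (0.0443) and COR15A (0.0442) also lie near the threshold. For these genes the difference was not followed with arrays left out.

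Probe sets outside the named genes also carried calls. Of 9233 probe sets with several genes or none in the annotation, 2713 (29.4%) were called in irradiated against unirradiated atm-1, with 901 higher and 1812 lower. In the same fit over all probe sets, 3138 of the 13356 named genes were called, with 1036 higher and 2102 lower. For the unnamed probe sets the split was not followed without replicate 1 or under other scalings.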

How the results depend on the processing

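Counts of calls moved with the settings. In irradiated against unirradiated atm-1, the 1007 higher genes became 1569 with array medians centred, 455 with array weights, 313 with only the groups of the comparison in the fit and 587 when those also had a replicate block, and 561 to 1313 with 1 array left out. The 2060 lower genes became 1217 with array weights, 730 with the groups of the comparison only and 1245 with a replicate block there, 1024 to 2636 with 1 array left out, and 968 with cyclic loess and no replicate 1, a setting chosen after seeing the data. For the difference from WT, the 286 positive calls became 433 with medians centred, 126 with array weights, 73 with the groups of the comparison only, 76 with a replicate block there, 129 to 902 with 1 array left out, and 155 with cyclic loess and no replicate 1. The 540 negative calls became 277 with array weights, 149 with the groups of the comparison only, 147 with a replicate block there, 186 to 1396 with 1 array left out and 189 with cyclic loess and no replicate 1. Against HZE 1.5 h, the 2219 higher genes became 1444 with the groups of the comparison only and 1359 with a replicate block there, and 1785 to 2256 with 1 array left out, while the 3104 lower genes stayed between 2125 and 3337. The share of higher calls there was 41.7% as deposited and 49.4% after cyclic loess. The fits with fewer groups have fewer residual degrees of freedom. Why the counts moved was not tested for any setting. A replicate block over all arrays gave 1017 higher and 2062 lower genes, 299 and 558 for the difference from WT, and 2226 and 3115 against HZE. A crossed pairing of the HZE comparison, where same-numbered arrays correlated at -0.13, gave 1816 higher and 2544 lower genes. Of 99 named genes called in atm-1, 64 were called under all 17 alternatives and 35 lost the call under at least 1, 13 of them under a replicate block. The highest and lowest genes among the 99 were chosen as called with each array left out, which favours the count of 64. ATG8C, at 0.27, changed sign to -0.048 with controls of both days. For the difference from WT, the alternatives were followed for 20 named genes only, the early genes and those at each end of that difference. Of these 20, 18 were called under all 20 alternatives, with ORA47 and AT2G12190 the exceptions. The other named genes called for that difference, such as HTB2, HTB1, POLH and COR15A, were not followed, so how far their calls hold was not tested. All 6 against HZE were called under every alternative run.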

Other observations

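A few genes called in both genotypes moved in opposite directions and were picked after their values were seen. AT4G29270 changed by log2 0.97 in atm-1 and -0.56 in WT, a difference of 1.53 (limma adjusted p 3.67e-06). AT1G78110 changed by -0.67 in atm-1 and 0.74 in WT, a difference of -1.41 (limma adjusted p 1.06e-05), and AT1G23030 by -0.65 and 0.38. All 3 were called in atm-1 with each of the 4 arrays left out.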
